A study of Xenopus laevis with 6 samples.

Results

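Tissue-specific RNA-binding proteins bind sets of transcripts in particular cell types and set how those transcripts are spliced, translated or degraded. The genes described here were chosen by symbol: msi1, msi2, esrp1, esrp2, rbfox2, elavl3, elavl4, igf2bp3, qki and celf1. The frog Xenopus laevis is an allotetraploid and carries many genes as a pair of homeologs, named L and S for the 2 subgenomes. The deposited data held 15 homeologs of 9 of these 10 symbols, among 49281 genes in all. Both homeologs were present for 6 symbols. For 3 symbols 1 homeolog was present, msi2.S, elavl3.L and elavl4.L. esrp2 and the partner copies of those 3 genes were not analysed here.

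Wild type animal pole explants, which are pieces of the blastula's pluripotent roof, were grown to stage 17 and profiled by bulk RNA sequencing. From stage 9 to 17 they were given either K02288, which inhibits BMP type I receptors, together with CHIR99021, which blocks GSK3 and so turns on canonical Wnt signalling, or DMSO as vehicle. Each group had 3 libraries, lettered a, b and c, and the labels assign a neural crest-reprogrammed identity to the treated explants and an epidermal one to the controls. The sources used here do not name clutches, doses or the number of explants per library, so the spread between libraries may be partly technical. An explant is a mixed tissue, and in bulk RNA a smaller number of cells of one type cannot be told apart from less RNA per cell.

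In vertebrate embryos, splicing and translation programmes differ between epithelia, neural tissue and mesenchyme. Esrp proteins favour the epithelial choice among alternative exons and are known in mammalian cells to be lost during the epithelial-mesenchymal transition. Musashi and Elav-type proteins act on neural transcripts, the former mainly in neural progenitors and the latter in differentiating neurons. Quaking, Rbfox, Celf and Igf2bp proteins work in several tissues, among them muscle, glia, oocytes and migrating cells.

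The neural factor genes msi1 and elavl3 were higher and the epithelial factor gene esrp1 was lower in treated explants. The other neural members, msi2.S and elavl4.L, were too low to be tested and did not share a direction. Their means were 1.88 and 2.54 normalized counts in controls and 8.08 and 0.30 in treated explants. rbfox2 and igf2bp3 showed no call in either direction. Of the 13 homeologs with a mean of at least 10 normalized counts, 5 were called higher, msi1.L, msi1.S, qki.L, elavl3.L and celf1.S. A further 2, esrp1.L and esrp1.S, were called lower, and 6 were not called. A gene was called when limma, fitted to all 22932 genes above that mean, gave an adjusted p under 0.05. Of all those genes 26.1% were called higher and 29.7% lower. The median log2 fold was -0.01 for the 13 homeologs and 0.01 for all genes tested. For 7 of the 13 the lowest library of one group lay above the highest of the other, as it did for 64.9% of all genes. The genes were proposed with this comparison already known, so these calls describe the values and carry no further weight. In the authors' deposited table the same 7 homeologs had an adjusted p under 0.05, each in the same direction. Those values come from the same 6 libraries and counts, so the match carries no separate weight.

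**Figure D1:**
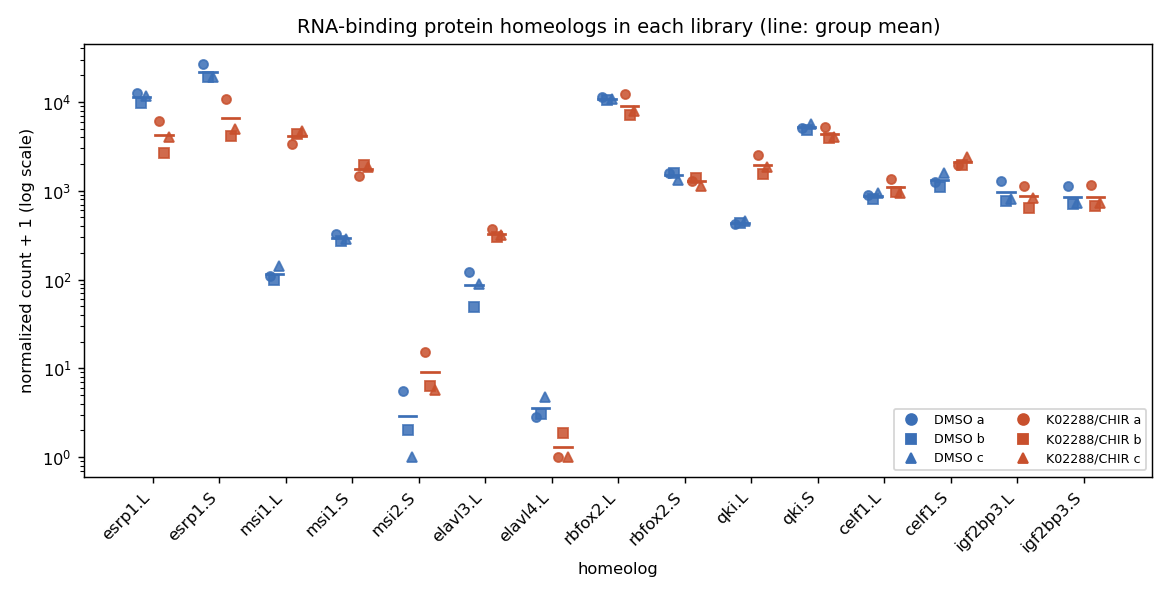
Normalized count + 1 (log axis) of each of the 15 homeologs in the 3 DMSO libraries (blue) and the 3 K02288/CHIR libraries (red), with marker shape giving the library letter and a line at the group mean. Both esrp1 homeologs are lower, and both msi1 homeologs, elavl3.L and qki.L are higher, in every treated library than in any control library.

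Gene reads numbered 33706389 to 43155031 per library. Reads aligned to more than 1 place made up 4.93% to 11.1% of the table's total, the highest in DMSO library a. These reads stand in a row of their own, outside the gene rows. How many of them belong to a given L or S copy was not measured, so the level of each homeolog is uncertain to an unknown degree. Among markers of the labelled identities, 14 of 21 tested homeologs of epithelial regulators and adhesion genes were lower in treated explants and 3 were higher. Of 10 homeologs of epithelial-mesenchymal transition regulators, several of which also mark neural crest, 8 were higher, and the other 2, snai2.S and zeb1.S, were not called. Among the higher ones, both twist1 copies, zeb1.L and zeb2.L had control means under 10. They passed the filter on the mean only through the treated libraries, which fixed their direction.

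esrp1, the epithelial splicing regulator, was lower in treated explants for both copies but still present in all of them. In the order a, b, c, esrp1.L had 12751, 9826 and 11751 normalized counts in the controls and 6119, 2686 and 3987 in the treated libraries. esrp1.S had 26991, 19043 and 19327 in controls and 10788, 4105 and 4936 in treated explants. The groups did not overlap for either copy, and treated library a was the highest treated library for both. The mean of esrp1.L was 2.68-fold lower in treated explants and that of esrp1.S 3.30-fold lower. Fitted log2 folds were -1.50 ± 0.29 for esrp1.L and -1.84 ± 0.36 for esrp1.S (fold ± SE). Within library letters the log2 difference of esrp1.S was -1.32 for a, -2.21 for b and -1.97 for c. As the groups did not overlap, the shared sign of these differences follows from that and adds nothing to it. Transcripts of esrp1 thus remained in every treated library, at 18.8% of the control mean of esrp1.S in library b and 49.5% in library a.

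Other genes of the lists varied beside esrp1. Of the 21 epithelial homeologs 14 were lower, 3 higher and 4 not called, with a median log2 fold of -1.33 over the list. Those not called, named after their values were seen, were grhl2.L, cldn7.S at -0.14 ± 0.17, and tfap2c.L and tfap2c.S at 0.25 ± 0.29 and 0.58 ± 0.22. The splicing regulators named next come from a mixed list of epithelial, muscle and neural factors, in which 6 homeologs were higher and 7 lower. rbm47, an RNA-binding protein gene of epithelial tissues in mammals, was lower for both copies, with log2 folds of -2.35 ± 0.48 for L and -1.17 ± 0.39 for S. For rbm47.S edgeR gave an adjusted p of 0.0592 and limma with upper quartile scaling 0.0642, so neither called it. Nor was it called when DMSO a (limma adjusted p = 0.12), DMSO b (0.0561), DMSO c (0.0826) or treated c (0.0502) was left out. rbm38, which encodes a regulator of RNA stability, was lower, and its L copy fell by 2.79 and its S copy by 2.17 on the log2 scale. ptbp3 encodes a paralog of the polypyrimidine tract binding protein Ptbp1: ptbp3.L fell by 2.87 and ptbp3.S fell by 2.15. grhl1, a grainyhead transcription factor gene of the epidermis, had folds of -1.71 ± 0.17 for L and -2.07 ± 0.13 for S, and tp63.S, the basal epidermal regulator, fell by 1.72. The epithelial cadherin gene cdh1.S fell by 2.05, from a mean of 50236 counts in controls to 12331 in treated explants. Its partner cdh1.L rose by 4.53 ± 0.47, from a control range of 13.8 to 45.6 counts to a treated range of 501 to 916. Counts of cdh1.L stayed below those of cdh1.S in every library. The adhesion gene epcam rose for both copies, by 0.52 ± 0.15 for L and 1.15 ± 0.24 for S, but epcam.L missed the threshold in 4 of the 6 leave-one-out fits (limma adjusted p up to 0.0775).

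The share kept in treated library a differed from gene to gene. It was 53.5% of the control mean for esrp1.L and 56.4% for grhl3.L, against 8.35% and 9.19% of grhl3.L in b and c. For rbm38.L library a held 13.03%, close to the 18.2% and 10.9% of b and c. Library a was also the highest treated library for both copies of rbm47 and ptbp3, and for grhl1.L, tp63.S and cdh1.S. It was the lowest for rbm38.S and grhl1.S. grhl3, a grainyhead gene of the epidermal surface, had log2 folds of -2.62 ± 0.69 for L and -2.19 ± 0.65 for S, with the L call lost by edgeR (adjusted p = 0.0637) and the S call as well (0.0842). Without treated a the limma adjusted p was 4.0e-06 for grhl3.L and 3.54e-05 for grhl3.S, while leaving out another library raised it to at most 0.0572 and 0.0835. grhl2.S had a fold of -1.36 ± 0.45 and was called lower, but not in 5 of the 6 leave-one-out fits, nor by edgeR, with upper quartile scaling or with the replicate block (limma adjusted p = 0.0505). grhl2.L stood at -0.04 ± 0.25 and was not called. Multiciliated cells also belong to this epithelium: 14 of 14 marker homeologs were lower, none was at 0, and their summed counts were 42524 to 48284 in controls and 1831 to 4130 in treated explants. The part of these cells in the esrp1 difference was not tested.

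**Figure D2:**
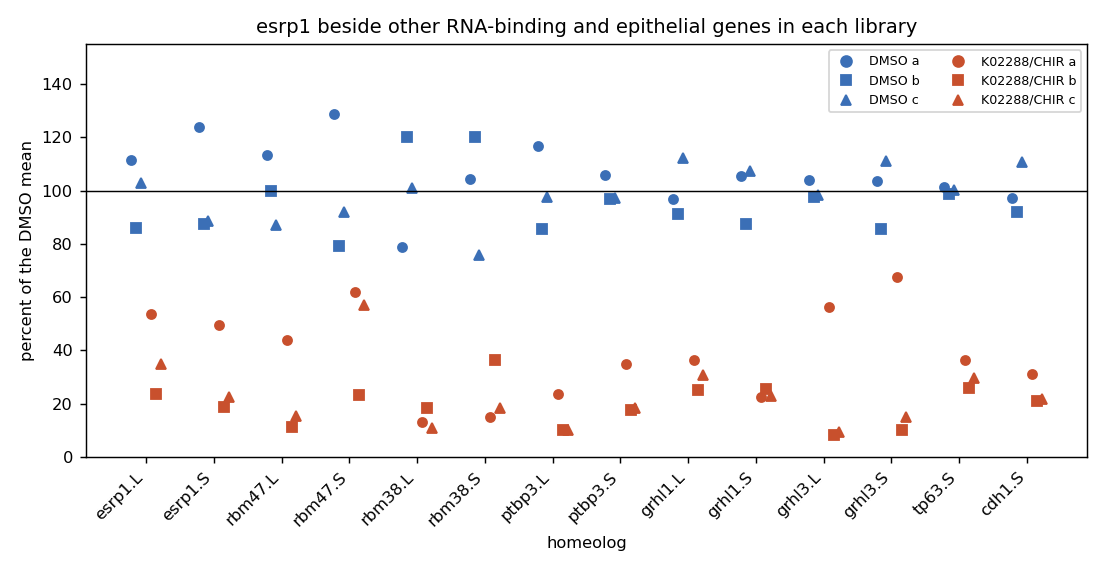
Normalized counts of esrp1 and of other RNA-binding, transcription factor and adhesion homeologs in each library, as a percentage of that gene's DMSO mean (line at 100), with marker shape giving the library letter. Treated library a (red circles) lies above b and c for both copies of esrp1, grhl3, rbm47 and ptbp3, and for grhl1.L, tp63.S and cdh1.S. It holds 53.5% for esrp1.L and 56.4% for grhl3.L. It lies between b and c for rbm38.L, and below both for rbm38.S and grhl1.S.

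Regulators that repress epithelial genes were higher in the same libraries. snai2.L, a zinc finger repressor gene of neural crest, was at 316 to 458 counts in controls and 8874 to 19182 in treated explants. snai2.S had 47.8 to 143 and 99.6 to 233 and was not called. zeb2, another repressor of epithelial genes, rose by 7.73 ± 0.84 for L, which had 0 to 9.32 counts in controls, and by 4.87 ± 0.33 for S. Within the treated group both copies of snai2, twist1 and zeb1 were highest in a and lowest in b, with twist1.L at 3599 in a. Both esrp1 copies had this same order. Both copies of snai1 and zeb2 were instead lowest in a, with zeb2.S at 850. What underlies these orders was not tested.

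msi1, the Musashi gene of neural progenitors, had the largest log2 folds of the 13 tested homeologs. Control libraries a, b and c held 108, 98.4 and 140 normalized counts of msi1.L, and the treated libraries 3362, 4384 and 4753. msi1.S had 325, 271 and 284 in controls and 1461, 1935 and 1871 in treated explants. Every treated library lay above every control library for both copies, and library a was the lowest treated library. The treated mean was 36.1-fold the control mean for msi1.L and 5.98-fold for msi1.S, with log2 folds of 5.16 ± 0.20 and 2.57 ± 0.17. By size of the log2 fold, msi1.L stood at place 278 and msi1.S at place 1160 from the top of 22932 genes. Summed over both copies, msi1 went from 409 ± 34.3 to 5922 ± 964 normalized counts (SD, n = 3). msi2, which encodes the second Musashi protein, was represented by msi2.S alone, with 5, 1 and 0 reads in controls and 15, 6 and 5 in treated libraries. The ratio of these reads, scaled by the size factors of the authors' normalization, was 3.84 (95% exact interval 1.54 to 11.4, counting error only). The gene was below the mean needed for the fit.

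The Elav genes split. elavl3.L, known as HuC and used as a marker of postmitotic neurons, had 119, 47.6 and 87.7 normalized counts in controls and 366, 304 and 317 in treated libraries. The groups did not overlap, the controls spread more widely than the treated libraries, and the treated mean was 3.87-fold higher (log2 fold 2.03 ± 0.35). elavl4.L, the HuD gene, was nearly silent, with 2, 2 and 3 reads in controls and 0, 1 and 0 in treated explants. The read ratio, scaled by the same size factors, was 0.127 (95% exact interval 0.00281 to 0.985, counting error only). Among paralogs that were no members, elavl1, the broadly expressed HuR gene, was higher for both copies, with log2 folds of 1.201 ± 0.21 for L and 1.08 ± 0.12 for S. elavl2.L fell by 1.74, and elavl2.S was at -0.70 ± 0.54 and not called. Thus elavl1 and elavl3.L were higher and elavl2.L was lower in the same explants.

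Genes of neural progenitors and neurons gave the setting for these values. Of 11 tested homeologs of neural progenitor markers 6 were called higher, beside 26.1% of all tested genes. The other 5 were not called, and the median log2 fold was 2.14. Of those not called, sox2.L was at 0.79 ± 0.59, sox3.L at -1.08 ± 0.59 and sox3.S at 0.06 ± 0.80. The remaining ones were nes.S at 2.14 ± 0.78 and notch1.S at -0.40 ± 0.27. nes.S, whose fold is the median of the list, had a control mean of 7.91. It passed the filter on the mean only through the treated libraries, which fixed its direction. fabp7.L was too low to be tested, with means of 6.55 in controls and 0.32 in treated explants. sox11.L and zic2.L rose by 5.20 ± 0.24 and 8.45 ± 0.52. Of 27 tested homeologs of differentiating neuron markers 13 were higher and 7 lower, with a median of 1.03. Of the higher ones only ncam1.L, ncam1.S and tubb2b.L had control means of at least 10. All the others passed the filter on the mean only through the treated libraries, which fixed their direction, and they also enter the median. Among the lower ones isl2.S had a treated mean under 10 and passed only through the controls. The lower count was 3 without DMSO library a. Members that rose included the tubulin gene tubb2b, by 3.71 ± 0.41 for L and 4.70 ± 0.52 for S. The sensory neuron regulator tlx3.L rose by 6.85 ± 0.72. In controls tubb2b.S had 3.71 to 8.29 counts and tlx3.L 0 to 3.11, so the filter fixed the direction of both. Among members that were lower, the synaptotagmin gene syt1.L fell by 2.77, and myt1.L, a zinc finger gene of early neurons, fell by 1.98. prph.L, a neuronal intermediate filament gene, had a fold of -1.27 ± 0.32. The partner copies myt1.S at -0.50 ± 0.28 and prph.S at 0.31 ± 0.40 were not called. The summed counts of this list were 30085 to 36672 in controls and 10649 to 14527 in treated explants, of which syt1.L alone made up 24039 to 31970 in controls and 2713 to 7582 in treated libraries. No member of the neuron list was at 0 in all 6 libraries. Their part in the elavl3.L difference was not tested.

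qki, the quaking gene, whose STAR-domain protein acts in splicing and transcript stability, differed between its copies. qki.L had 416, 436 and 461 normalized counts in controls and 2534, 1524 and 1842 in treated explants, in letter order. The groups were far apart, and treated library a was the highest. The treated mean was 4.49-fold the control mean, with a log2 fold of 2.13 ± 0.20. qki.S had 5125, 4791 and 5627 in controls and 5248, 3891 and 3984 in treated explants. Treated library a lay within the control range, b and c lay below it, and the log2 fold of -0.25 (95% interval -0.61 to 0.10) was not called. Without treated a the fold of qki.S was -0.39 and the call was made (limma adjusted p = 0.0326). Summed over both copies, qki was at 5619 ± 436 in controls and 6341 ± 1265 in treated explants (SD, n = 3).

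celf1 encodes the CUG-binding protein that in Xenopus, under the name EDEN-BP, promotes deadenylation of maternal transcripts, and that regulates splicing in vertebrate muscle. celf1.S had 1265, 1112 and 1574 normalized counts in controls and 1960, 1944 and 2388 in treated libraries. The groups did not overlap, and the treated mean was 1.59-fold higher (log2 fold 0.68 ± 0.17). celf1.L had 891, 805 and 949 in controls and 1349, 973 and 939 in treated explants, so the groups overlapped. Its log2 fold of 0.29 (95% interval -0.14 to 0.71) was not called with the authors' scaling and was called, at 0.50, under upper quartile scaling (limma adjusted p = 0.0324). Among other Celf genes, the neural gene celf3 rose by 4.54 ± 0.79 for L, with 93.3 counts in treated library a and 585 and 583 in b and c. celf3.S rose by 5.80 ± 0.33. With 6.21 to 8.27 counts in controls, it passed the filter on the mean only through the treated libraries, which fixed its direction. celf5.S fell from 32.1 to 38.3 counts in controls to 10.4 to 14.2 in treated libraries.

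rbfox2, a splicing factor gene with roles in muscle, neurons and mesenchyme, was not called for either copy. rbfox2.L had 11315, 10588 and 10657 normalized counts in controls and 12227, 7154 and 7853 in treated libraries. Treated library a lay above all controls, and b and c lay below all of them. The log2 fold of rbfox2.L was -0.30 (95% interval -0.78 to 0.19). Without treated a it was -0.53 and was called (limma adjusted p = 0.00686). rbfox2.S had 1597, 1599 and 1309 in controls and 1292, 1405 and 1132 in treated explants, with a log2 fold of -0.23 (95% interval -0.59 to 0.12). It was lower in treated explants within each of the 3 library letters, by 0.19 to 0.31 on the log2 scale. rbfox1 was represented by 1 read in the 6 libraries together. Muscle markers were near 0 in both groups, with 13 homeologs summing to 60.5 to 112 counts in controls and 21.7 to 125 in treated explants, and myh4.L, myl1.L and myl1.S at 0 throughout.

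igf2bp3 encodes the Vg1 RNA-binding protein, which localises maternal transcripts in the Xenopus oocyte and is known to be needed for neural crest migration in this species. Its levels differed more between library letters than between treatments. igf2bp3.L had 1287, 772 and 810 normalized counts in controls and 1126, 646 and 831 in treated explants. igf2bp3.S had 1123, 702 and 730 in controls and 1156, 668 and 734 in treated explants. In both groups and for both copies library a was the highest and library b the lowest. The log2 fold was -0.14 (95% interval -0.80 to 0.52) for igf2bp3.L and -0.01 (95% interval -0.66 to 0.65) for igf2bp3.S. With the letter as a block the intervals narrowed to -0.47 to 0.20 for L and -0.32 to 0.30 for S, again without a call.

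**Figure D3:**
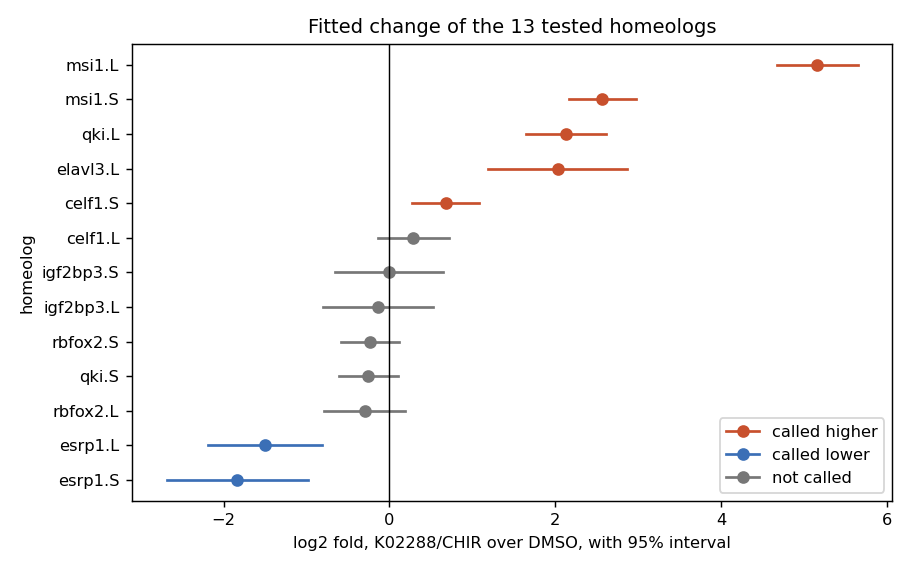
Fitted log2 fold of K02288/CHIR over DMSO for the 13 tested homeologs, with 95% intervals from limma on log2(normalized count + 1). Values run from -1.84 for esrp1.S to 5.16 for msi1.L, and the 6 homeologs not called have intervals that include 0.

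The balance between the L and S copies of msi1 and qki shifted between the groups. The share of L is given as a percentage of the normalized counts of both copies. Since transcript lengths were not used, it is read only for its change between groups, not for which copy is more abundant. For msi1 the L share was 25.0%, 26.6% and 32.9% in controls and 69.7%, 69.4% and 71.8% in treated libraries. For qki it was 7.51%, 8.34% and 7.57% in controls and 32.6%, 28.1% and 31.6% in treated libraries. Neither pair overlapped between groups. The log2 fold of L exceeded that of S by 2.59 ± 0.19 for msi1 and by 2.39 ± 0.13 for qki, and both were called in a limma fit of the L to S ratio over 5796 pairs. Of all pairs in that fit 38.0% were called, 1034 with the higher fold in L and 1167 with the higher fold in S, so shifts of this kind were common. By absolute size msi1 stood at place 516 and qki at place 604.

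The other 4 pairs kept closer shares. The L share of esrp1 was 34.6% ± 2.91 in controls and 40.1% ± 4.28 in treated explants (SD, n = 3), a difference in log2 folds of 0.34 ± 0.16 that was not called. It was called with the letter as a replicate block (limma adjusted p = 0.0182). For celf1 the L share was 40.3% ± 2.36 and 34.1% ± 6.31, a difference of -0.39 ± 0.22 that was not called, except without treated library a (limma adjusted p = 0.036). igf2bp3 was at 52.8% ± 0.541 and 50.5% ± 2.21, and rbfox2 at 87.9% ± 1.11 and 87.1% ± 3.44, neither called.

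**Figure D4:**
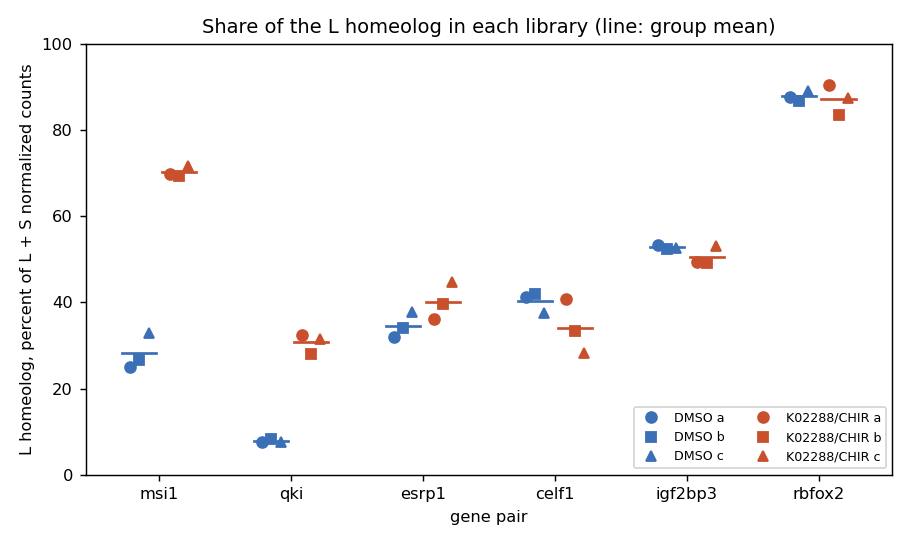
Share of the L homeolog in the normalized counts of the L and S copies together (percent), per library, for the 6 pairs with both copies in the data. The msi1 share lies at 25.0% to 32.9% in DMSO and 69.4% to 71.8% in K02288/CHIR libraries, and the qki share at 7.51% to 8.34% and 28.1% to 32.6%.

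Other RNA-binding protein genes moved in both directions, as did all tested genes, of which 26.1% were called higher and 29.7% lower. Among paralogs of the families above, 7 homeologs were tested, 4 were higher and 2 lower, with a median log2 fold of 1.08. The higher ones include celf3.S, whose direction the filter fixed. Of 20 tested homeologs of other splicing regulators of epithelia, muscle and nervous tissue, 6 were higher and 7 lower, with a median of -0.13. Those that rose included nova1.L, and nova2.L by 3.41 ± 0.41, both of which encode splicing factors of neurons. nova1.L had 1 read over the controls and 28.5 to 36.8 counts in treated libraries, so the filter fixed its direction. Both copies of khdrbs1, the Sam68 gene, were higher, by 0.96 ± 0.13 in L and 0.75 ± 0.12 in S. ptbp1, whose protein represses neural exons in non-neural cells, was at 0.08 ± 0.15 for L and was not called. ptbp1.S was higher by 0.37 ± 0.13, a call lost by edgeR (adjusted p = 0.0505), with lower filters on the mean, and without control library b or c or treated library b or c (limma adjusted p up to 0.141).

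Of 53 tested homeologs of other translation and stability regulators, 21 were higher, 8 lower and 24 not called, with a median of 0.35. Among all tested genes 26.1% were called higher and 29.7% lower. Of the higher homeologs, rbpms2.L had a control mean of 8.40 and passed the filter only through the treated libraries, which fixed its direction. tia1.S, a stress granule protein gene, rose by 1.61 ± 0.15, and rbms1.S, a single-strand binding protein gene, by 1.71 ± 0.14. Both copies of csdc2, a cold shock domain gene, were lower, with folds of -3.13 ± 0.42 and -2.60 ± 0.31. zfp36.L, which encodes an mRNA decay factor, fell by 3.00, with 206 counts in treated library a and 61.4 and 75.3 in b and c. larp6.L, a La-related protein gene, fell by 1.48, while larp6.S was at -0.28 ± 0.35 and not called.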

How the data were processed

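Per the file headers, the deposited table holds normalized counts per library with their mean, and the authors' log2 fold change, its error, the Wald score, the p-value and the adjusted p-value. The authors used DESeq per the submitters' processing notes, which give no version. Aligner, read counter, genome build and annotation were not given in the sources used here. Each library's deposited signal was a read count divided by a size factor: 100% of 184429 values above 0 were whole multiples of 1 read within 0.01 reads. Left out were 5 summary rows of the read counter and 1 empty line, and 1 shifted row was mended.

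Values were tested with limma 3.58.1 (trend) in R 4.3.3 on log2(normalized count + 1), for genes with a mean of at least 10, adjusted by Benjamini-Hochberg over all genes at 0.05. Folds are on that scale, which understates changes of low genes. A gene under a mean of 10 in one group passed only through the other group, which fixed its direction in advance. Examples are nova1.L and celf3.S. The same fit on the log2 ratio of L to S covered all pairs with both copies above that mean. The fits were checked on simulated counts. On recovered reads, edgeR 4.0.16 called 12390 genes and DESeq2 1.42.0 called 13252, against 12806 by limma. Python 3.11.15, scipy 1.17.1 and matplotlib 3.10.9 served for intervals and plots.

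Column headers share the letters a, b and c between groups. Deviations from the group means correlated at 0.33, 0.40 and 0.32 for same-lettered libraries and at -0.23 to -0.09 for others, so the letters were taken as pairs in a blocked alternative; the labels do not state a pairing.

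The members and lists were chosen with earlier results of these data known. All members were named. From each other list up to 4 genes in each direction with the smallest adjusted p among those called could be named, with elavl1, elavl2, ptbp1, rbm47, grhl2, grhl3, zeb2 and snai2 always. Not every gene the rule names is reported here. Some genes outside this rule (zeb1, snai1, rbfox1, cldn7.S, tfap2c, sox2.L, sox3, nes.S, notch1.S, myt1.S, prph.S, larp6.S and muscle genes at 0) were named after their values were seen. So were fabp7.L and rbpms2.L.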

Additional observations from a re-analysis of the deposited data

How the results depend on the processing

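The alternatives were pseudocounts of 0.5 and 5, a mean of at least 1 or 50 or no filter, upper quartile scaling, edgeR and DESeq2 on recovered reads, each library left out, and the library letter as a replicate block. The 7 called homeologs kept their call and direction in each of the 6 fits with a library left out. For celf1.S the call was close, with a limma adjusted p of up to 0.0495. With a library left out, members called lower numbered 2 to 4, the highest without treated library a, when qki.S and rbfox2.L joined esrp1. In that fit 7029 of all 22930 genes tested were called lower, so 4 of 13 members was near the share of all genes. Of 195 refitted member folds, 192 stayed on the same side of the threshold and 3 gained a call, those of qki.S and rbfox2.L without treated a and celf1.L under upper quartile scaling. None reversed while called. The low homeologs msi2.S and elavl4.L entered only with lower filters. With no filter elavl4.L was called lower (limma adjusted p = 0.0390) and 3 of 15 members were lower in all, beside 7389 of all 38067 genes. With a mean of at least 1 elavl4.L was not called (0.0517), and msi2.S was called in neither (0.0954 and 0.0824). With upper quartile scaling all genes had a median log2 fold of 0.22 in place of 0.01, and 7517 were called higher and 5930 lower, against 5995 and 6811. With the replicate block 5 members were higher and 2 lower, as without it, beside 6522 and 7276 of all 22932 genes. The ratio fit with the block called 3 member pairs against 2, adding esrp1. Muscle markers had 4 homeologs tested, and their counts of 1 higher and 1 lower changed under several alternatives. The neuron list had 20 higher homeologs with no filter and 6 with a mean of at least 50. With 3 libraries a group, an exact permutation test of 1 gene cannot go below 0.10. Reads of msi2.S and elavl4.L, at most 15 per library, limit what can be said of both.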

Other observations

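The genes most like the summed esrp1 counts across the 6 libraries, among 16055 genes with a mean of at least 100, were LOC108701721, crb3.L, reep4.L, dapk2.L and nectin4.L, with root mean square differences of 0.08 to 0.11 in centred log2 values. crb3 encodes a Crumbs protein of epithelial polarity and nectin4 a cell adhesion protein. For the summed elavl3 and elavl4 counts they were cecr2.S, phf20.S, efna3.S, marcks.L and sycn.L, with differences of 0.17 to 0.23. These 6 libraries form 2 groups, so likeness mainly follows the difference between the groups and the place of single libraries within each group.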
